A study of Mus musculus with 28 samples.

Results

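Brown adipose tissue of obese mice labelled as Fgf13 knockout was compared with the same tissue of obese controls. All libraries of the brown fat table were taken, which are 5 of the 28 libraries of the series: 2 from knockout mice (genotype label Fgf13 KO) and 3 from control mice (genotype label WT). Mice of both groups had eaten a high fat diet for 20 weeks, so the controls were obese as well, and the knockout was the constitutive form of the allele that the series writes as Fgf13∆Adipo. The promoter that drove the deletion, the strain, the sex and the age are not given in the labels used here, nor is it said that each library came from a different mouse, so the p-values measure only the spread between these libraries. Of 55891 genes in the table, the 13253 that reached at least 1 CPM, the unit of the deposited values (a gene's reads scaled to the library's total), in at least 2 of the 5 libraries were tested.

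FGF13 belongs to the fibroblast growth factor homologous factors, which are not secreted like other fibroblast growth factors but stay in the cell, where they bind voltage-gated sodium channels and microtubules. Brown fat burns fatty acids and glucose for heat by way of UCP1, a protein that lets protons leak back into mitochondria, and it also makes fatty acids from glucose. In obesity the tissue stores more fat, gains features of white fat and takes in macrophages. The title of the series sets Fgf13 beside ceramide and nutrient sensing, and genes of both subjects are described among the others. Values are given for controls 1, 2 and 3 first and then for knockouts 1 and 2, and a change is knockout minus control on the scale log2(CPM + 1), which understates the change of low genes.

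The brown fat libraries held 14951333 to 21246286 reads, so that 1 read was worth 0.0471 to 0.0669 CPM. Transcripts of the mitochondrial genome took 27.7% to 35.8% of the reads of each library. No pair of libraries agreed within sampling noise, since the chi-square per degree of freedom over genes was 29.3 to 99.1.

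The targeted gene was low in this tissue and lower in the knockout libraries. Fgf13 was at 6.59, 3.01 and 17.6 CPM in the control libraries and 0.246 and 1.87 CPM in the knockout libraries, that is 9.07 ± 7.62 (SD, n = 3) against 1.06 ± 1.15 CPM (SD, n = 2). The groups did not overlap, but control 3 had several times the level of control 2, and control 2 lay nearer to knockout 2 than to control 3. The change was -2.13 (SE 0.77) and did not pass (limma adjusted p = 0.251), while DESeq2 on the whole reads gave an adjusted p of 0.0258. The exact two-sided permutation test over the libraries gave p = 0.2, the smallest value that its 10 arrangements allow. In subcutaneous fat of the constitutive knockout the gene was more abundant, at 110.1, 113 and 106 against 43.0, 62.5 and 84.0 CPM, in a table normalised separately. There it was lower in the knockout libraries but not absent, and the change did not pass (limma adjusted p = 0.465).

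Brown fat markers were high in all libraries. Ucp1 was at 5692, 7238 and 5048 against 4950.4 and 6594 CPM and Cidea, a lipid droplet protein typical of brown fat, at 1152, 1399.5 and 1099 against 1266 and 1477 CPM, and the groups overlapped for both. Other cell types varied between libraries of the same group. The 16 tested genes of the white adipocyte list (of 20 listed) had library means of 5.89, 4.78 and 6.44 against 4.36 and 5.09 on the log2(CPM + 1) scale and summed to 2900.0, 1818 and 3878 against 1252 and 1659.7 CPM. Controls 1 and 3 were thus high for white adipocyte genes, and control 2 lay between the 2 knockout libraries in its mean and just above both in its sum. On either scale 6 of the 16 lay below all controls and 0 above. Of all genes 38.1% lay below in CPM and 18.9% after the TMM scaling described below, so the CPM count was near that of all genes. Of the 6, Trim14 reached 1 CPM in controls only. The median change was -1.05 (-0.86 with TMM, -0.14 against control 2 alone). Lep, the adipocyte hormone leptin, was at 660.4, 309 and 1230.4 against 217 and 279 CPM. It ran in the same order over the libraries as Fgf13, from control 3 through control 1, control 2 and knockout 2 to knockout 1. Skeletal muscle transcripts differed far more: the 23 tested genes of that list (of 25) had means of 4.39, 5.81 and 0.92 against 0.60 and 8.11 and summed to 707, 1990.1 and 66.4 against 57.7 and 9498 CPM, and Acta1, skeletal muscle actin, was at 125, 337 and 4.51 against 0.431 and 1707 CPM. Muscle RNA was thus highest in knockout 2 and lowest in knockout 1, and followed neither group. The part of white adipocytes and muscle in the results below was not tested. In tissue RNA, fewer cells of a type and less RNA per cell cannot be told apart. Because control 2 was close to the knockout libraries in its white adipocyte genes, the counts of several lists below are also given against control 2 alone, a comparison chosen after the data were seen, in which 49.6% of all tested genes were below control 2 in both knockout libraries and 19.6% above it.

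**Figure D1:**
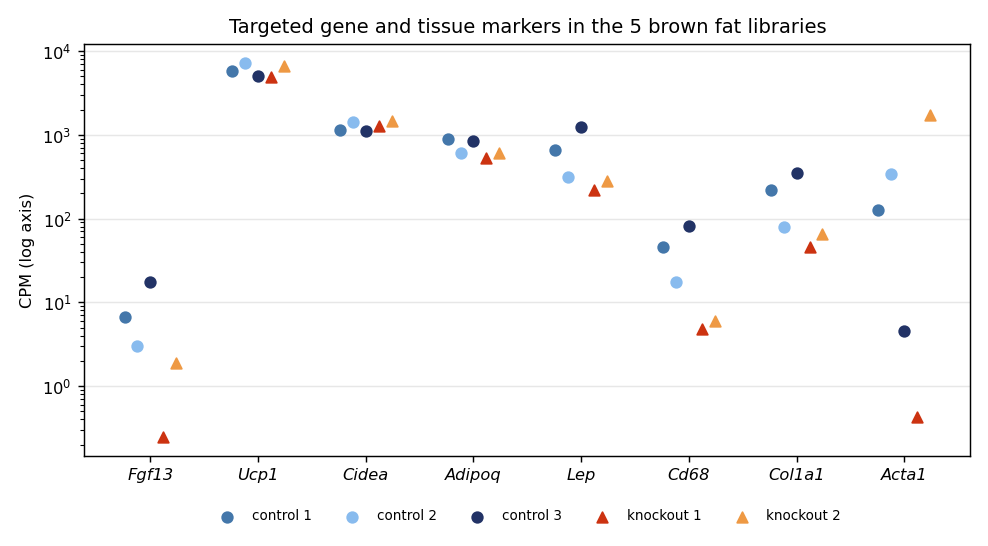
CPM on a log axis of Fgf13, brown fat markers (Ucp1, Cidea), the general adipocyte gene Adipoq, leptin (Lep), a macrophage gene (Cd68), a collagen (Col1a1) and skeletal muscle actin (Acta1). Circles are the 3 control libraries and triangles the 2 knockout libraries. Fgf13, Lep, Cd68 and Col1a1 share 1 order of libraries, with control 2 the lowest control, while Acta1 spans 0.431 to 1707 CPM across both groups.

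Few genes passed the test over all genes. With limma on log2(CPM + 1) and Benjamini-Hochberg adjustment, 1 gene was called at an adjusted p under 0.05, which is 0.00755% of those tested, and it was higher in the knockout. At an unadjusted p under 0.05, 307 genes were higher (2.32%) and 2233 lower (16.8%). The edgeR quasi-likelihood test on whole reads called 0 genes (smallest adjusted p 0.107, with 2223 genes at an unadjusted p under 0.05), and DESeq2 on the same reads called 261 higher (1.97%) and 530 lower (4%). Without control 2 the limma test called 131 genes higher and 1948 lower, and without controls 1 and 3 it called 3 higher and 0 lower. Both knockout libraries lay above all 3 controls for 844 genes (6.37%) and below all 3 for 5056 (38.1%).

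The balance between higher and lower depended on the scaling. The median change of all tested genes was -0.18 in the deposited CPM. After division by trimmed mean of M-values (TMM) factors, which were 0.984 to 1.15 in the controls and 0.904 and 0.931 in the knockout libraries, it was 0.00. On the TMM scale 2440 genes lay above all controls (18.4%) and 2507 below (18.9%). Counts of gene groups are therefore given on both scales, and a change near -0.18 in CPM is that of the median gene. Where groups of a single gene are said to overlap with no scale named, the deposited CPM is meant. Each count is to be read beside the shares of all genes, 6.37% above and 38.1% below in CPM and 18.4% and 18.9% with TMM. For DESeq2 these shares were 1.97% higher and 4% lower. On simulated counts DESeq2 called more unchanged genes than limma or edgeR did, with the numbers given under the processing.

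**Figure D2:**
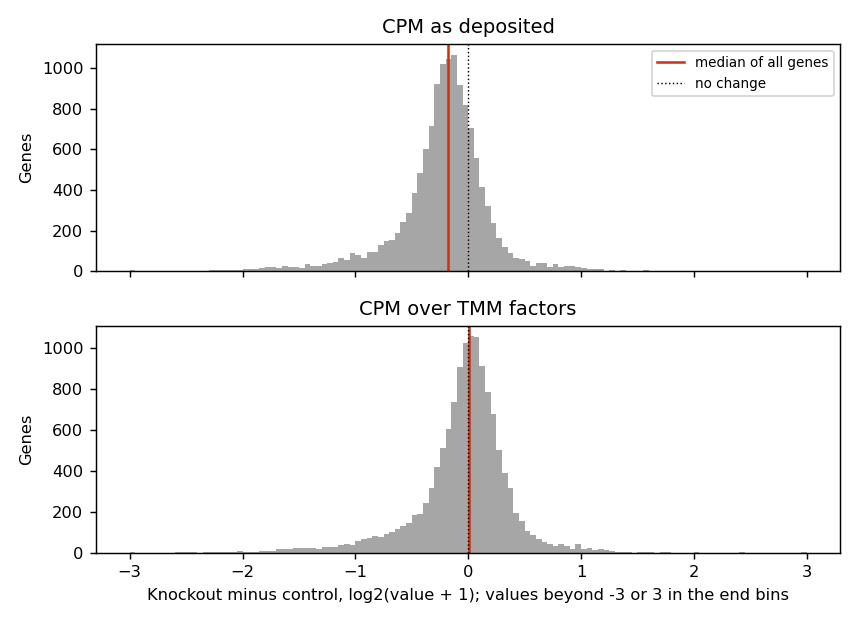
Number of genes by their change (knockout minus control, log2 of the value + 1), for the deposited CPM above and for CPM divided by TMM factors below, over 13253 genes. The line of the median sits at -0.18 in the upper panel and at 0.00 in the lower one, so that the whole distribution moves with the scaling.

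The gene called was Gm7049, a processed pseudogene in the GENCODE vM21 annotation whose transcript is most like that of Me1. A bare model name falls outside the rule for named genes, so it was singled out after its values were seen. It was at 0.235, 0.125 and 0 CPM in the control libraries and 16.7 and 11.0 CPM in the knockout libraries, and the control libraries thus held almost no reads of it. It passed the filter through the knockout libraries alone. The change was 3.71 (SE 0.24) (limma adjusted p = 0.0351). Its adjusted p was above 0.05 without any 1 library other than control 2 (0.0997 to 0.527) and by edgeR (0.164). In subcutaneous fat of the same knockout it was at 0.141, 0.222 and 0.245 against 15.1, 28.5 and 30.7 CPM, with a change of 4.36 (SE 0.26) that passed there as well (limma adjusted p = 0.00382, 3 of 14286 genes called, 0.021%). Me1, the cytosolic malic enzyme that supplies NADPH for fatty acid synthesis, was at 364, 279 and 356 against 381 and 279.8 CPM, with overlapping groups. The transcripts of Gm7049 and Me1 are identical at 98.43% of 1716 aligned columns. Of the 50-base windows of Gm7049, 48.35% occur unchanged in Me1 and 67.41% in any gene besides Gm7049, Me1 included. Not every read of 50 cycles can thus be told apart, and the level of Gm7049 is uncertain. The stretch of 80 bases within the coding part of Me1 where the 2 transcripts differ most is shown to let the reader judge how alike they are, from transcript position 431 to 510 of Gm7049 and 635 to 714 of Me1, with the 3 differing bases in capitals.
Gm7049: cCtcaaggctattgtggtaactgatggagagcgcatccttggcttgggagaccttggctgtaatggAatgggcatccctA
Me1: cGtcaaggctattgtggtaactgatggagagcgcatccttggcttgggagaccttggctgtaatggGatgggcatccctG

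Values of 3 other near-identical copies are given, all far higher in the knockout libraries. Morf4l1-ps1, a retrocopy identical to Morf4l1 at 99.79% of aligned bases, had no read in any control and 6.83 and 3.34 CPM in the knockout libraries, at least 95.4-fold higher than a floor of 3 reads over the control group. Gm11868, a copy of Cyb5r4 (97.98% identical), was at 0, 0 and 0 against 2.28 and 3.21 CPM, at least 51.5-fold higher by the same floor. Gm10925, a nuclear copy whose 678 bases are all identical to the mitochondrial gene mt-Atp6, was at 38.2, 16.2 and 34 against 555 and 491 CPM, while mt-Atp6 itself was at 37041, 40605 and 31267 against 43177 and 42124 CPM. These 3 did not pass (limma adjusted p 0.136 to 0.171), and the last 2 were chosen after their values were seen. Morf4l1-ps1 and Gm11868 passed the filter through the knockout libraries alone, so their direction was set by it. Each shares reads with its parent gene, so the split between copy and parent is uncertain.

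Of the 10 genes named as higher, which have the smallest unadjusted p among genes with groups that do not overlap, none passed (limma adjusted p 0.136 to 0.237). They include Morf4l1-ps1, described above. Acsl5, an acyl-CoA synthetase that activates long-chain fatty acids, was at 96.5, 85.3 and 86.8 CPM in the control libraries and 174 and 192 CPM in the knockout libraries, a change of 1.02 (SE 0.11). The controls lay within a narrow range and both knockout libraries at about the same distance above it, a pattern that picking by the smallest p favours. Fdft1, the enzyme that makes squalene, was at 26.1, 22.5 and 26.4 against 65.5 and 49.6 CPM. Mlxipl, which encodes the glucose-responsive transcription factor ChREBP, was at 83.0, 74.5 and 62.0 against 139 and 131 CPM, and Pygl, glycogen phosphorylase of the liver type, at 317, 239 and 192 against 692 and 587 CPM. That both knockout libraries lay above the highest control in these 4 metabolic genes follows from the rule that picked them. Gsta4, a glutathione transferase that clears the lipid aldehyde 4-hydroxynonenal, was at 32.3, 33.2 and 29.9 against 53.5 and 57.7 CPM, and Fmo1, a flavin monooxygenase, at 135, 146 and 138 against 243 and 209.6 CPM. The motor protein gene Myo5b was at 15.7, 18.5 and 16.1 against 44.0 and 36.4 CPM and the ubiquitin conjugation gene Ube2ql1 at 1.74, 1.19 and 0.944 against 13.2 and 8.36 CPM. Tgtp1, an interferon-inducible GTPase with a near-identical paralogue that can share its reads, was at 0.612, 0.125 and 0.210 against 4.68 and 6.42 CPM. Apart from Morf4l1-ps1, Tgtp1 had the largest fold of the 10, from a level under 1 CPM in each control, so that it too passed the filter through the knockout libraries alone. In subcutaneous fat Gsta4 was at 8.14, 11.9 and 7.22 against 45.3, 28.7 and 29.3 CPM, again with groups that did not overlap, and Tgtp1 at 0.0471, 0.222 and 0.245 against 7.09, 0.0698 and 3.77 CPM, where knockout 2 was at the control level.

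The 10 genes named as lower were picked by the same rule, which favours genes with a small spread within the groups. Their adjusted p-values were 0.136 to 0.237 (limma). Gdf15, a stress-induced hormone that acts on appetite and that brown fat can secrete, was at 7.34, 12.6 and 10.1 CPM in the control libraries and 1.29 and 1.07 CPM in the knockout libraries, a change of -2.31 (SE 0.24). Eya2, a transcriptional coactivator and phosphatase, was at 17.3, 12.4 and 15.8 against 3.20 and 3.81 CPM. For both genes the spread among the controls was small beside their distance to the knockout libraries, as the pick by the smallest p favours. Ccn2, connective tissue growth factor, was at 13.5, 12.5 and 17.2 against 4.31 and 4.75 CPM, and Amotl2, an angiomotin family gene, at 86.6, 86.1 and 95.4 against 56.5 and 54.8 CPM, both known targets of the Hippo pathway effector YAP. Tnfrsf12a, the receptor of the cytokine TWEAK, was at 40.0, 35.1 and 39.1 against 18.6 and 20.7 CPM. In these 3 genes the control libraries stayed close together, with control 2 near control 1. Col12a1, a collagen that associates with fibrils, was at 30.7, 29.7 and 38.4 against 14.7 and 16.5 CPM, and the laminin chain gene Lamb3 at 22.0, 17.6 and 22.7 against 8.74 and 10.4 CPM. Gpat3, which adds the first fatty acid to glycerol phosphate, was at 36.9, 30.8 and 35.8 against 16.9 and 19.9 CPM, and Cbr2, a carbonyl reductase, at 10.7, 10.3 and 14.4 against 4.18 and 4.75 CPM. Rtp4, an interferon-stimulated gene, was at 8.38, 6.65 and 9.28 against 3.08 and 2.74 CPM. None of the 10 had overlapping groups on the TMM scale.

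**Figure D3:**
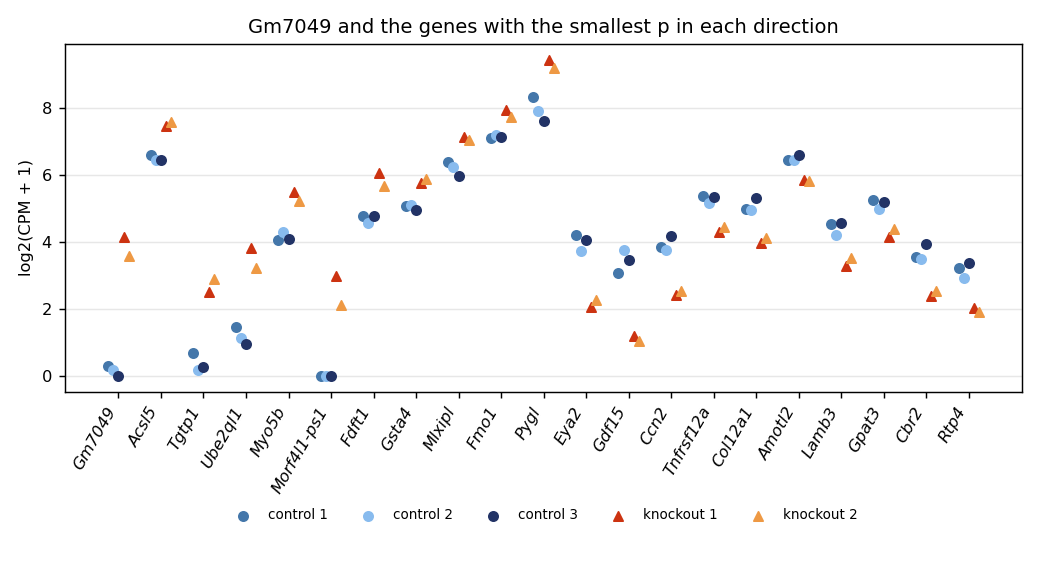
log2(CPM + 1) in each library of Gm7049, of the 10 genes named as higher (Acsl5 to Pygl) and of the 10 named as lower (Eya2 to Rtp4). Circles are controls and triangles knockout libraries, and the genes were picked so that the symbols of the 2 groups do not overlap.

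Many fatty acid synthesis genes were higher in both knockout libraries. Of the 18 tested genes of the lipogenesis list, 9 lay above all controls (against 6.37% of all genes) and 1 below, and on the TMM scale 13 above (against 18.4%) and 1 below. None passed with limma, and DESeq2 called 8 higher (against 1.97% of all genes) and 1 lower (against 4%). The list's median change was 0.43 in CPM and 0.63 on the TMM scale, beside -0.18 and 0.00 for all genes. Fasn, fatty acid synthase, was at 4756, 2203 and 1742 CPM in the control libraries and 11032 and 7619 CPM in the knockout libraries, a change of 1.80 (SE 0.48) (limma adjusted p = 0.237). Control 1 was more than double control 3, so the controls spread widely below the knockout libraries. Acaca and Acly, which supply malonyl-CoA and acetyl-CoA to the synthase, were at 751, 416 and 313 against 1645 and 1109 CPM and at 847, 473 and 335 against 1626 and 1440.3 CPM. Acacb, whose product restrains fatty acid entry into mitochondria, was at 305, 365 and 275 against 701 and 537 CPM. All 3 repeated the order of Fasn within the knockout group, with knockout 1 above knockout 2. Elovl6, which elongates palmitate, was at 198, 195 and 122 against 408 and 348 CPM, and Thrsp, a lipogenic regulator, at 1031, 698 and 543 against 1819 and 1668 CPM. Tkt, an enzyme of the pentose phosphate pathway, was at 1614, 1118 and 919 against 2977 and 2275 CPM. Pnpla3 was at 84.2, 68.7 and 78.2 against 107 and 101 CPM. Srebf1, the sterol and insulin-responsive lipogenic factor, was at 207, 176 and 205 against 191 and 213 CPM and Scd1, stearoyl-CoA desaturase, at 13861, 10912 and 15069 against 13334 and 9587 CPM, and both overlapped between the groups in CPM. With TMM Srebf1 lay above all controls, while Scd1 still overlapped. Scd2, the desaturase paralogue, was below all controls at 187, 153 and 255 against 90.0 and 112 CPM. Against control 2 alone, 14 of 18 were above it in both knockout libraries, with a median of 0.65. In subcutaneous fat the median of the same list was -0.03, where limma called none of its members.

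Glucose use genes were arranged alike. Of 23 tested genes, 13 lay above all controls (against 6.37% of all genes) and 2 below (against 38.1%). On the TMM scale 17 lay above (against 18.4%) and 2 below (against 18.9%). The median change was 0.33 (0.53 with TMM). DESeq2 called 9 higher (against 1.97% of all genes) and 0 lower, and limma none. Slc2a4, the insulin-responsive glucose transporter GLUT4, was at 266, 218 and 178 against 327 and 364 CPM, a change of 0.66 (SE 0.18), and Hk2, hexokinase 2, at 238, 205 and 153 against 313 and 299.6 CPM. Eno1, enolase, was at 2384, 1832 and 1581 against 3525 and 2770.3 CPM. Mpc1, a subunit of the mitochondrial pyruvate carrier, was at 496, 484 and 401 against 762 and 685 CPM, Pdha1, of the pyruvate dehydrogenase complex, at 954, 990.1 and 779 against 1500.0 and 1282 CPM, and Pdk1, a kinase that inhibits that complex, at 58.6, 47.5 and 38.9 against 94.3 and 75.0 CPM. For each of these 6 genes the lowest control was control 3, and both knockout libraries exceeded control 1. Slc2a1, the ubiquitous transporter GLUT1, was at 12.1, 8.97 and 11.1 against 7.81 and 5.95 CPM and Hk1 at 94.1, 71.5 and 86.8 against 64.8 and 49.8 CPM, the 2 members below all controls. Pfkm, the muscle form of phosphofructokinase, was at 58.9, 88.5 and 56.8 against 72.0 and 207 CPM, and its high value was in knockout 2, the library with the most muscle RNA.

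The order of the controls was not that of the white adipocyte genes. Control 3, the highest library for white adipocyte genes, was at the level of control 2 for lipogenesis and the lowest for glycolysis, and control 1 was the highest control for both. The lipogenesis list had library means of 8.47, 8.10 and 8.10 against 8.90 and 8.73 on the log2(CPM + 1) scale. The glycolysis list had means of 8.76, 8.68 and 8.54 against 9.0 and 8.94 on that scale.

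**Figure D4:**
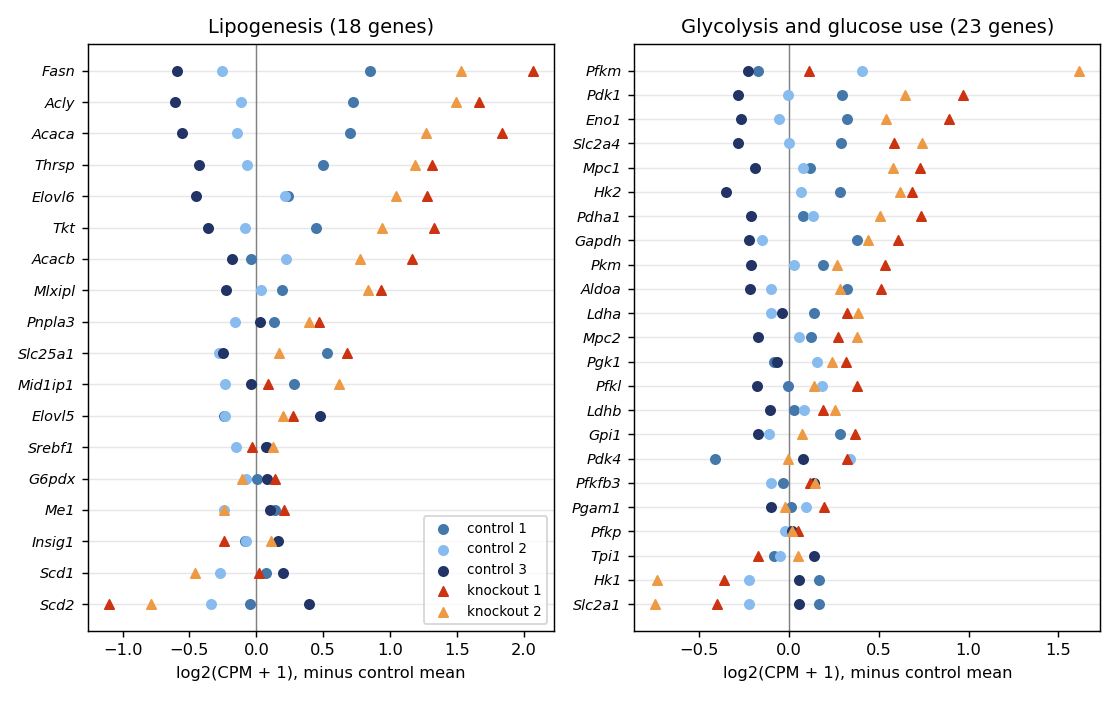
log2(CPM + 1) of each tested lipogenesis gene (left) and each glycolysis and glucose use gene (right), minus the mean of the 3 controls, in each library, ordered by change. Triangles (knockout) lie to the right of all circles (controls) for 9 of 18 and 13 of 23 genes, and to the left for Scd2, Hk1 and Slc2a1.

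General adipocyte genes had a small median change, whose sign turned with the scaling (-0.09 in CPM, 0.12 with TMM). Of 20 tested genes, 4 lay above and 3 below all controls (against 6.37% and 38.1% of all genes). With TMM 5 lay above and 1 below (against 18.4% and 18.9%). The list mean was above all controls with TMM and overlapped in CPM. DESeq2 called 3 higher and 0 lower (against 1.97% and 4% of all genes). Adipoq, adiponectin, was at 897, 599.9 and 835 against 527 and 613 CPM, and Pparg, the master regulator of fat cell formation, at 243, 232 and 227 against 236 and 209 CPM, both with overlapping groups. Gpd1, which makes glycerol phosphate for triglyceride, was at 5579.9, 4444 and 3593 against 7998 and 6491 CPM, a change of 0.69 (SE 0.21). It shared with Fasn the order of all 5 libraries. In triglyceride assembly, Gpat4 was at 168, 196 and 179 against 265 and 229.7 CPM and thus opposite to its paralogue Gpat3, while Dgat2, the last step, overlapped at 1955, 2336 and 2441 against 2003 and 2157 CPM. Of 20 lipolysis and droplet genes 1 lay above and 3 below all controls in CPM (against 6.37% and 38.1% of all genes). With TMM 4 lay above and 0 below (against 18.4% and 18.9%), and the median turned from -0.07 to 0.13. Lipe, hormone-sensitive lipase, overlapped at 1469, 1088 and 1261 against 1259 and 1195 CPM, and Pnpla2, adipose triglyceride lipase, was the member above in CPM at 2039, 1768 and 1822 against 2267 and 2122 CPM.

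Cholesterol synthesis genes gave no common direction, although Fdft1 belongs to them. Of 19 tested genes 2 lay above all controls (Fdft1 and Pmvk) and 3 below (against 6.37% and 38.1% of all genes). With TMM 5 lay above and 1 below (against 18.4% and 18.9%), and the median was -0.18 in CPM and 0.01 with TMM. Srebf2, the transcription factor that drives the pathway when sterols are low, was at 37.6, 34.2 and 42.6 against 28.7 and 31.1 CPM, below all controls on both scales.

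Mitochondrial genes encoded in the nucleus were slightly higher in many cases. In the list of nuclear subunits of oxidative phosphorylation, 25 of 39 tested genes lay above all controls in CPM (against 6.37% of all genes) and 0 below. With TMM 37 lay above (against 18.4%) and 0 below. The median change was small, 0.20 in CPM and 0.41 with TMM, limma called none and DESeq2 8, all higher. Ndufa4 was at 552, 608 and 539.6 against 665 and 793 CPM, Cox5a, of cytochrome c oxidase, at 437, 496 and 444 against 535 and 615 CPM, and Sdha, of succinate dehydrogenase, at 1696, 2057 and 1701 against 2193 and 2115 CPM. Against control 2 alone, 32 of 39 were above it in both knockout libraries. Citric acid cycle genes lay above all controls in 8 of 15 cases (against 6.37% of all genes) and below in 1. With TMM 12 lay above (against 18.4%) and 0 below. The median was 0.15 (0.07 against control 2 alone). Idh2, the mitochondrial isocitrate dehydrogenase that yields NADPH, was the exception at 726, 719 and 646 against 548 and 576 CPM, whose groups overlapped with TMM. Acaa2, the last thiolase step, was at 2409, 2317 and 2064 against 2792 and 2719 CPM. It was among the 9 of 21 fatty acid oxidation genes above all controls (against 6.37% of all genes). Of these 21 genes 2 were below (Cpt1a and Acot2), and with TMM 13 were above (against 18.4%) and 1 below. Their median of 0.13 became 0.02 against control 2 alone, with 10 above and 8 below it in both knockout libraries. Cpt1a, the liver form of the enzyme that admits fatty acids to mitochondria, was at 41.0, 39.9 and 74.8 against 21.2 and 24.3 CPM, while the form dominant in brown fat, Cpt1b, overlapped at 824, 1003 and 790.3 against 921 and 890.4 CPM.

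Of 21 branched-chain amino acid breakdown genes 8 lay above all controls (against 6.37% of all genes) and 0 below, 15 (against 18.4%) and 0 with TMM. The median was 0.08, and 0.04 against control 2 alone, with 10 above and 7 below it in both knockout libraries. Bckdhb, a subunit of the branched-chain ketoacid dehydrogenase, was at 104, 115 and 103 CPM in the control libraries and 137 and 163 CPM in the knockout libraries, a change of 0.48 (SE 0.12) (limma adjusted p = 0.237). In subcutaneous fat it was at 47.2, 52.4 and 46.4 against 85.4, 94.5 and 85.6 CPM, where the change of 0.85 (SE 0.08) passed (limma adjusted p = 0.0294). The groups were apart in both depots, and the difference between depots was not tested.

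The thermogenic list gave no common direction in CPM. Of 27 tested genes (29 listed) 3 lay above all controls (Kcnk3, Slc27a2 and Esrra, against 6.37% of all genes). Below all controls were 3 (Gdf15, Nrg4 and Fgf21, the last reaching 1 CPM in controls only, against 38.1%). With TMM 10 lay above (against 18.4%) and 1 below (against 18.9%). The median was 0.08 in CPM and 0.29 with TMM. Kcnk3, a potassium channel of brown adipocytes, was at 125, 125 and 109 against 199 and 164 CPM. Dio2, which activates thyroid hormone in the tissue, was at 59.3, 93.2 and 46.9 against 87.4 and 101 CPM, Elovl3 at 45.4, 56.7 and 27.6 against 52.9 and 81.5 CPM, and the coactivator Ppargc1a at 26.1, 34.8 and 26.7 against 33.5 and 28.9 CPM. These 3 genes of activated brown fat overlapped between the groups in CPM. With TMM Dio2 and Elovl3 lay above all controls, while Ppargc1a still overlapped. Nrg4, a growth factor secreted by brown fat, was at 88.3, 86.3 and 89.5 against 76.4 and 69.6 CPM, and its groups overlapped with TMM. Of 13 protein-coding genes of the mitochondrial genome 1 lay above all controls and 0 below (against 6.37% and 38.1% of all genes). With TMM 4 lay above and 0 below (against 18.4% and 18.9%).

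Macrophage genes were lower in the knockout libraries. Of 18 tested genes (19 listed), 15 lay below all controls (against 38.1% of all genes) and 0 above, with TMM 14 and 0. Of the 15, Fcgr1 reached 1 CPM in controls only, and the median change was -1.98 (-1.80 with TMM). DESeq2 called 13 lower and limma none. Cd68, a lysosomal protein of macrophages, was at 45.6, 17.3 and 81.2 CPM in the control libraries and 4.8 and 5.95 CPM in the knockout libraries, a change of -2.70 (SE 0.70) (limma adjusted p = 0.237). Adgre1, which encodes F4/80, was at 81.6, 15.9 and 81.4 against 6.21 and 6.22 CPM, and Lyz2, lysozyme, at 410.1, 147 and 654 against 59.4 and 60.9 CPM. Control 2 was the lowest control in all 3 genes and still above both knockout libraries, which were close to each other. Mrc1, the mannose receptor, was at 34.1, 21.2 and 65.3 against 9.54 and 7.96 CPM, Folr2, of resident macrophages, at 16.4, 7.65 and 22.7 against 1.54 and 3.48 CPM, and the complement gene C1qa at 113, 36.4 and 125 against 15.6 and 17.5 CPM. Cx3cr1, Mertk and Lyve1 overlapped between the groups. Against control 2 alone, 16 of 18 were below it in both knockout libraries, with a median of -0.84. The summed level of the list was 1122, 395 and 1571 against 181 and 179.8 CPM, with no overlap.

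Genes of lipid-associated macrophages, which gather around dying fat cells, were lower too. Of 16 tested genes 13 lay below all controls (against 38.1% of all genes), 11 with TMM (against 18.9%), and none above. The median was -1.57, and DESeq2 called 10 lower (against 4% of all genes). Of the 13, 4 (Trem2, Spp1, Atp6v0d2 and Itgax) reached 1 CPM in controls only, so the filter had already set their direction. Trem2, the lipid receptor that marks these cells, was at 17.8, 4.08 and 33.9 against 0.861 and 0.669 CPM. Lgals3, galectin 3, was at 119, 41.2 and 246 against 10.5 and 9.97 CPM, Gpnmb at 53.8, 12.9 and 135 against 2.83 and 3.01 CPM and Mmp12, a macrophage elastase, at 36.8, 11.0 and 97.8 against 2.09 and 2.47 CPM. These 4 ranged several-fold among the controls, from control 2 up to control 3, while each knockout library was well below control 2. Lpl, Plin2 and Ctsd, which fat cells also express, overlapped. Against control 2 alone the median was -0.54, with 14 of 16 below it in both knockout libraries.

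Antigen presentation genes were also lower, while few lymphoid genes passed the filter. For MHC class II and dendritic genes 7 of 8 tested genes lay below all controls on both scales (against 38.1% and 18.9% of all genes). Among them was Cd74, the invariant chain, at 484, 203 and 756 against 115 and 136 CPM. DESeq2 called 7 lower (against 4% of all genes). Of the T and NK cell list only 8 of 20 genes passed the filter, all at 8.66 CPM or less. Of the 6 below all controls 5 reached 1 CPM in controls only, so no direction is read from this list. Of the B and plasma cell list 7 of 15 genes passed the filter, and 4 of these lay below all controls on both scales (against 38.1% and 18.9% of all genes). Among the 4, Cd79a reached 1 CPM in controls only. Igkc, the immunoglobulin kappa constant gene, was at 11.9, 21.3 and 32.1 against 2.52 and 2.21 CPM, and its levels put control 1 below control 2. Of 14 neutrophil and mast cell genes 5 passed the filter, of which 4 lay below all controls (against 38.1% of all genes) and 0 above. With TMM 3 lay below (against 18.9%) and 1 above. The mast cell protease Mcpt4 was at 7.77, 3.76 and 7.66 against 0.984 and 3.01 CPM, and Kit, the stem cell factor receptor, overlapped in CPM at 5.6, 6.90 and 7.13 against 6.52 and 11.1 CPM. Pf4, a platelet and megakaryocyte chemokine that macrophages can make, was at 18.1, 12.4 and 25.8 against 3.75 and 6.15 CPM, whereas the haemoglobin gene Hbb-bs was at 456, 554 and 1034 against 494 and 552 CPM and overlapped.

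**Figure D5:**
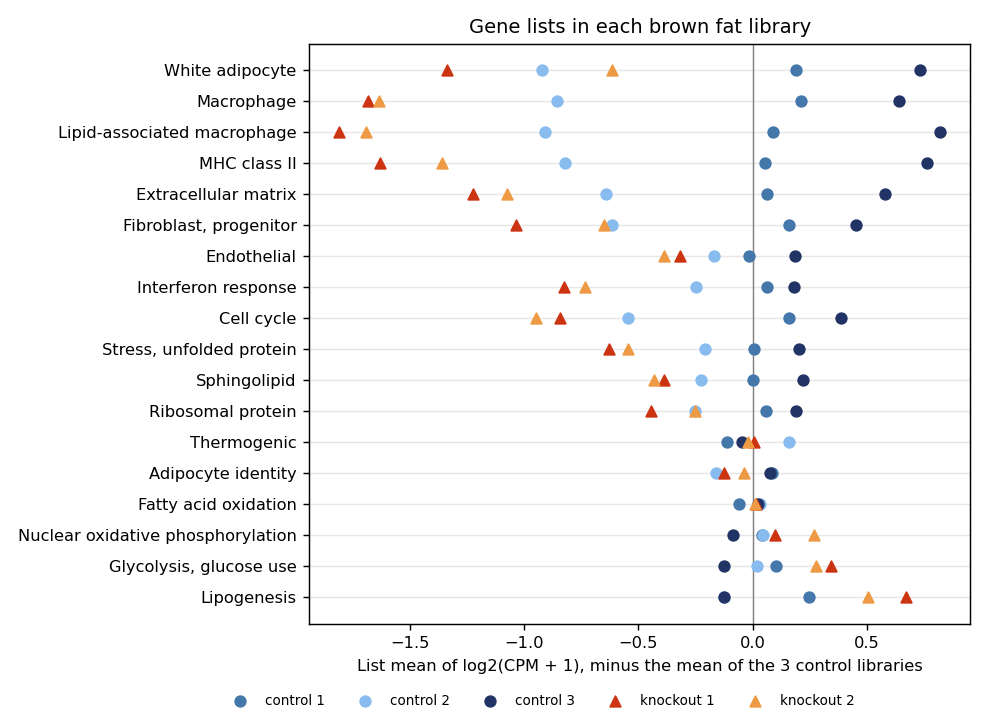
Mean of log2(CPM + 1) over the tested genes of 18 lists in each library, minus the mean of the 3 controls. Circles are controls and triangles knockout libraries. For white adipocyte genes control 2 lies between the knockout libraries, for macrophage, extracellular matrix and interferon genes both knockout libraries lie below control 2, and for lipogenesis and glycolysis they lie above all controls.

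Extracellular matrix genes were lower as well. Of 32 tested genes 28 lay below all controls (against 38.1% of all genes) and 0 above, 25 (against 18.9%) and 0 with TMM, and all 32 changes were below 0, with a median of -1.20 (-1.0 with TMM). DESeq2 called 18 lower and limma none. Of the 28, Timp1 reached 1 CPM in controls only. Col1a1, of fibrillar collagen, was at 216, 79.9 and 346 CPM in the control libraries and 45.8 and 64.7 CPM in the knockout libraries, a change of -1.72 (SE 0.70) (limma adjusted p = 0.282), and Col3a1 at 545, 254 and 1082 against 145 and 219.8 CPM. In both, control 2 lay much closer to the knockout libraries than to control 3. Some members had tighter controls: Col4a1, of basement membrane, was at 731, 592 and 1027 against 454 and 424 CPM, and Lox, which crosslinks collagen, at 51.9, 45.1 and 74.2 against 27.6 and 27.5 CPM. Tnc, tenascin C, was at 13.1, 9.66 and 17.0 against 5.41 and 3.48 CPM and Thbs1, thrombospondin 1, at 29.7, 24.8 and 42.0 against 14.8 and 8.69 CPM. Each of these 4 was below control 2 in both knockout libraries, as were 28 of the 32, with a median of -0.51 against that library. P4ha1 and Plod2, which hydroxylate collagen, and Lum and Col5a2 overlapped between the groups. In subcutaneous fat the median of the list was -0.02.

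Fibroblast and progenitor genes were divided. Of 21 tested genes 9 lay below all controls (against 38.1% of all genes), 8 with TMM (against 18.9%), and 1 above. In CPM the count was thus near that of all genes. The median was -0.93, and -0.27 against control 2 alone. Of the 9, Mfap4 and Sfrp4 reached 1 CPM in controls only. Pdgfra, the receptor that marks adipose progenitors, was at 19.0, 12.7 and 24.5 against 8.25 and 10.3 CPM and Cd34 at 71.3, 56.1 and 102 against 35.1 and 32.4 CPM. Dpt, dermatopontin, was at 238, 67.4 and 217 against 34 and 76.3 CPM, where control 2 lay between the knockout libraries. The 1 gene above was Dlk1, a preadipocyte inhibitor of fat cell formation, at 1.08, 0.690 and 1.21 against 5.17 and 2.01 CPM. Endothelial genes lay below all controls in 15 of 21 cases, but in 7 with TMM (against 38.1% and 18.9% of all genes), with a median of -0.31 (-0.11 with TMM). Pecam1 was at 204, 194 and 238 against 168 and 152 CPM and Kdr, the receptor of vascular endothelial growth factor, overlapped at 129, 172 and 157 against 151 and 181 CPM.

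Interferon-stimulated genes were lower in both knockout libraries. All 20 tested members (22 listed) lay below all controls in CPM (against 38.1% of all genes). With TMM 19 did (against 18.9%), where Stat2 was the exception. All 20 were below control 2 in both knockout libraries (against 49.6% of all genes). The median was -0.85 (-0.68 with TMM, -0.49 against control 2 alone), DESeq2 called 6 lower (against 4% of all genes), and limma none. Irf7, the factor that amplifies the interferon response, was at 14.4, 11.4 and 15.6 CPM in the control libraries and 6.65 and 6.62 CPM in the knockout libraries, a change of -0.94 (SE 0.17) (limma adjusted p = 0.237). Bst2, tetherin, was at 39.4, 25.9 and 41.5 against 17.3 and 16.1 CPM and Gbp2, a guanylate binding protein, at 50.9, 33.3 and 60.6 against 23.1 and 24.5 CPM. Ifit1, which binds foreign RNA caps, was at 7.39, 5.20 and 7.03 against 2.77 and 2.88 CPM and Oas1a, a sensor of double-stranded RNA, at 4.89, 3.32 and 5.66 against 1.35 and 1.74 CPM. The library means of the list were 3.76, 3.45 and 3.88 against 2.87 and 2.97 on the log2(CPM + 1) scale, and those of the macrophage list 4.64, 3.57 and 5.07 against 2.74 and 2.79. Both lists had control 2 as the lowest control and both knockout libraries below it. Tgtp1, described above and not a member of the list, was higher in the knockout libraries. Macrophages also express many of these genes, and the part of the lower macrophage genes was not tested.

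The promoters of the interferon-stimulated genes in RefSeq (GRCm38.p6) were searched for the core of the interferon-stimulated response element. This core is GAAA, then 2 bases of any kind, then GAAA. Both strands of the 250 bases before the start of transcription were searched. Of 20 members 15 had a promoter in the table and 10 of these (66.67%) held a match, against 303 of 9966 tested genes with a promoter (3.04%). A match is a description of the sequence and not a site of binding. The members were chosen as interferon-stimulated genes, so their share of matches comes from that choice and says nothing about the knockout. The 3 members with a match and the smallest p are shown, 120 bases each, written 5′ to 3′ on the strand of the gene with the matches in capitals, which overlap each other in Bst2 and Oas1a. Ifit1 is taken from chr19:34640754-34640873 (plus strand), Bst2 from chr8:71537527-71537646 (minus strand) and Oas1a from chr5:120907526-120907645 (minus strand).
Ifit1: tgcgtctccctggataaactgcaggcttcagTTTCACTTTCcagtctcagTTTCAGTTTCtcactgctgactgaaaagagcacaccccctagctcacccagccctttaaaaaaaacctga
Bst2: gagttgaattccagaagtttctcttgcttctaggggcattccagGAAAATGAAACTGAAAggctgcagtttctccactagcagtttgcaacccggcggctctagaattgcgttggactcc
Oas1a: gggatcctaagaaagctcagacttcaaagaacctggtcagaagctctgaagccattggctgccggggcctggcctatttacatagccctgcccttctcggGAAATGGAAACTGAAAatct
For the lipogenesis list the core of the carbohydrate response element bound by ChREBP was searched in the same window, as the boxes CACGNG and CNCGNG with 5 bases of any kind between them, on either strand. It was in 0 of the 16 members with a promoter and in 63 of 9966 tested genes (0.6321%), which says only that these letters are not in the window.

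Cell cycle genes were lower in the knockout libraries. Of 19 tested cell cycle genes 17 lay below all controls (against 38.1% of all genes), 15 with TMM (against 18.9%), and 0 above. The median was -0.90, and DESeq2 called 3 lower (against 4% of all genes). Of the 17, 7 reached 1 CPM in controls only, so the filter had already set their direction. Mki67, the antigen Ki-67, was at 8.94, 4.26 and 10.8 against 2.52 and 2.01 CPM, and Mcm5, of the replication helicase, at 7.81, 4.70 and 9.02 against 2.77 and 2.01 CPM. All levels were low, with Pcna the highest at 35.6, 26.4 and 44.2 against 23.6 and 22.8 CPM. Against control 2 alone 17 of 19 were below it in both knockout libraries.

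Genes of the unfolded protein and integrated stress responses were lower in most cases. Of 23 tested genes 17 lay below all controls (against 38.1% of all genes), 13 with TMM (against 18.9%), and 0 above. The median was -0.52 (-0.31 with TMM), and DESeq2 called 5 lower (against 4% of all genes). Hspa5, the chaperone BiP of the endoplasmic reticulum, was at 334, 304 and 396 against 252 and 238 CPM, and Hsp90b1 at 223, 201 and 262 against 155 and 144 CPM. Calr, calreticulin, was at 276, 217 and 318 against 169 and 176 CPM and Creld2 at 13.6, 11.9 and 14.6 against 7.94 and 7.56 CPM. Sdf2l1, a cofactor of these chaperones, was at 9.41, 5.08 and 11.0 against 2.65 and 1.94 CPM, with controls that ranged more widely than in the other 4. Trib3, a pseudokinase induced by ATF4, was at 10.4, 11.2 and 11.6 against 7.45 and 5.02 CPM, and Mthfd2, of mitochondrial one-carbon metabolism, at 4.99, 4.95 and 5.30 against 2.77 and 1.61 CPM. Atf4 itself was at 128, 132 and 119 against 113 and 119 CPM, with groups that overlapped with TMM, and Asns and Atf6 overlapped on both scales. Ribosomal protein genes lay below all controls in 17 of 33 cases in CPM (against 38.1% of all genes) but in 5 with TMM (against 18.9%).

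Sphingolipid genes, the subject named in the series title, were described over the list of 28 tested genes (33 listed). Of these 15 lay below all controls (against 38.1% of all genes) and 0 above in CPM, 10 (against 18.9%) and 3 with TMM, with a median of -0.34 (-0.14 with TMM). Sptlc2, a subunit of the serine palmitoyltransferase that starts ceramide synthesis, was at 24.2, 19.6 and 27.5 against 17.9 and 14.9 CPM, and Degs1, which introduces the double bond of ceramide, at 70.3, 56.2 and 109 against 44.4 and 50.9 CPM. Among ceramide synthases, Cers6 was at 4.52, 2.63 and 8.55 against 1.72 and 1.27 CPM and Cers2 at 158, 161 and 164 against 134 and 137 CPM, the second with groups that overlapped with TMM. Sgms2, a sphingomyelin synthase, was at 6.64, 5.77 and 7.81 against 2.95 and 3.68 CPM, and Smpd3, neutral sphingomyelinase 2, at 3.91, 2.95 and 4.93 against 0.738 and 1.67 CPM. The knockout libraries were thus below the controls for an enzyme that forms sphingomyelin and for 1 that cleaves it. Asah1, acid ceramidase, was at 41.6, 34.3 and 55.2 against 26.4 and 24.1 CPM and Ugcg, which glucosylates ceramide, at 15.4, 13.5 and 18.8 against 11.3 and 10.8 CPM. The sphingolipid genes given values so far all lay below all controls in CPM, and the 3 above with TMM are not among them. Sptlc3, a further serine palmitoyltransferase gene, went the other way but did not pass the filter. It was at 0.0941, 0.188 and 0.157 against 0.7999 and 0.736 CPM, above all controls at a low level. DESeq2 called Smpd3 alone (adjusted p = 0.0377), and limma none. The library means of the list were 4.72, 4.50 and 4.94 against 4.33 and 4.29 on the log2(CPM + 1) scale. Macrophage genes, whose values stand above, also had their highest level in control 3 and their lowest in the knockout libraries, and their part was not tested. Against control 2 alone 16 of 28 were below it in both knockout libraries.

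Caveolae, the membrane pits of fat cells, had 8 of 11 tested genes below all controls in CPM (against 38.1% of all genes) and 4 with TMM (against 18.9%), and 0 above. Cav1, caveolin 1, was at 1043, 871 and 1248 against 749 and 786 CPM, and Cavin1, of the coat, overlapped at 492, 328 and 599 against 299.7 and 329 CPM. Ehd4, an ATPase at caveolar necks, was at 30.8, 19.0 and 45.4 against 11.8 and 12.7 CPM and the only member that DESeq2 called (adjusted p = 0.0132). Control 2 was the control nearest to the knockout libraries in all 3.

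The nutrient sensing genes of the mTORC1 and AMPK pathways gave no common direction in CPM. Of 35 tested genes 4 lay above all controls and 9 below (against 6.37% and 38.1% of all genes). With TMM 9 lay above and 3 below (against 18.4% and 18.9%). The list mean was above all controls with TMM and overlapped in CPM, and the median changed sign with the scaling (-0.05 in CPM, 0.16 with TMM). Mtor, the kinase, was at 87.0, 88 and 75.0 against 114 and 92.4 CPM and Deptor, an inhibitory partner of it, at 269.8, 245 and 237 against 361 and 291 CPM. Prkab1, a regulatory subunit of AMPK, was at 24.4, 21.2 and 22.9 against 30.9 and 34.7 CPM and Rragb, a lysosomal GTPase with a close paralogue, at 0.753, 0.439 and 0.577 against 1.35 and 1.54 CPM. These 4 lay above all controls on both scales, but Rragb passed the filter through the knockout libraries alone. Sesn2, a leucine sensor that holds mTORC1 back, was at 35.3, 31.2 and 37.3 against 23.6 and 23.2 CPM, and Rheb, the GTPase that activates mTORC1, at 57.5, 50.8 and 55.7 against 37.7 and 43.5 CPM. Ddit4, an inhibitor induced by stress, was at 109, 47.0 and 75.6 against 44.6 and 19.7 CPM, with groups that overlapped with TMM. Neither activators nor inhibitors of mTORC1 were thus all on 1 side. In insulin signalling 9 of 18 genes lay below all controls (against 38.1% of all genes), 4 with TMM (against 18.9%), and 1 above, counts near those of all genes. Pik3r1, the regulatory subunit of phosphoinositide 3-kinase, was at 115, 102 and 139 against 81.0 and 70.1 CPM, and Tbc1d4, the Akt substrate that holds GLUT4 inside the cell, at 26.5, 35.4 and 33.9 against 38.6 and 43.5 CPM. The receptor gene Insr overlapped at 52.3, 61.6 and 59.9 against 58.8 and 56.5 CPM.

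Of 13 tested genes of the fibroblast growth factor family 3 lay above all controls (Fgf14, Fgfr2 and Klb) and 4 below (Fgf13, Fgf21, Fgfr1 and Fgfrl1), 3 and 2 with TMM. The shares of all genes were 6.37% and 38.1% in CPM and 18.4% and 18.9% with TMM. Fgf14 passed the filter through the knockout libraries alone and Fgf21 through the controls alone, so their directions were set by it. Fgf14, a homologous factor, was at 0.282, 0.752 and 0.367 against 1.11 and 1.47 CPM, above all controls at a low level, and Fgf11 overlapped at 6.35, 5.08 and 7.03 against 8.18 and 4.88 CPM. Fgf12, which did not pass the filter, was at 0, 0 and 0.944 against 0.0615 and 0 CPM. Fgfr1, a receptor of secreted members, was at 95.8, 74.8 and 99.96 against 56.0 and 64.9 CPM, and Klb, the coreceptor of FGF21, at 16.8, 15.6 and 18.1 against 19.9 and 22.5 CPM. Fgf21 was under 2 CPM in all libraries. Of the voltage-gated sodium channel genes that FGF13 could bind, Scn4a was at 1.27, 5.20 and 0 against 0.185 and 19.5 CPM, highest in knockout 2 and then control 2, as were the muscle genes.

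Genes beside Adipoq were listed because the promoter of that gene is often used to delete genes in fat, though the driver used here is not given in the labels. Of 9 tested genes 2 lay above all controls and 1 below (against 6.37% and 38.1% of all genes). With TMM 4 lay above and 1 below (against 18.4% and 18.9%). Eif4a2, an RNA helicase of translation initiation, was at 144, 156 and 153 CPM in the control libraries and 219 and 213 CPM in the knockout libraries, a change of 0.51 (SE 0.10) (limma adjusted p = 0.237, DESeq2 adjusted p = 1.3e-05). In subcutaneous fat it was at 137, 199 and 199.6 against 252, 269 and 214 CPM. Kng2, kininogen 2, was at 109.9, 166 and 139 against 186 and 206 CPM, and Dnajb11, a chaperone, at 30.0, 24.9 and 39.7 against 22.5 and 21.5 CPM. Adipoq itself overlapped between the groups. Ahsg, a plasma protein gene of the liver in the same stretch, was at 0.141, 0.815 and 54.7 against 7.69 and 0.736 CPM, with its high value in control 3 only. Kng1 and Hrg, further plasma protein genes of the liver, were also highest in that library, at 1.46, 4.01 and 18.5 against 8.74 and 6.55 CPM and at 0.0471, 0.188 and 6.92 against 0.923 and 0.0669 CPM.

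Antioxidant genes gave no common direction. Of 23 tested genes 3 lay above all controls (Gsta4, Gpx3 and Gpx4) and 7 below (against 6.37% and 38.1% of all genes). With TMM 8 lay above and 2 below (against 18.4% and 18.9%), and the list mean overlapped on both scales. Gpx4, which reduces lipid peroxides in membranes, was at 1054, 965 and 946 against 1274 and 1182 CPM, and Hmox1, haem oxygenase, at 39.7, 21.8 and 59.6 against 15.8 and 8.29 CPM. Gclm, of glutathione synthesis, was at 43.5, 39.3 and 45.2 against 32.9 and 29.8 CPM and Nqo1 overlapped at 2.07, 2.26 and 2.31 against 0.984 and 2.61 CPM.

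Clock and immediate early genes, which depend on the time and handling at collection, gave no common direction. Of 18 clock genes 2 lay above all controls and 4 below (against 6.37% and 38.1% of all genes). With TMM 2 lay above and 0 below (against 18.4% and 18.9%). Per2, a core repressor of the clock, was at 15.7, 6.27 and 6.61 against 14.6 and 2.34 CPM, and ran from its highest value in control 1 to its lowest in knockout 2. Of 20 immediate early genes 1 lay above all controls and 6 below, 4 and 5 with TMM, to be read against the same shares. Their median was -0.28 (-0.08 with TMM). Nr4a1, a nuclear receptor induced by adrenergic stimulation, was at 13.2, 20.9 and 18.1 against 23.1 and 39.7 CPM, and Fos overlapped at 2.82, 8.28 and 11.7 against 1.54 and 8.23 CPM.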

How the data were processed

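RNA of brown adipose tissue was sequenced with 50 cycles. Salmon, FastQC, MultiQC and DESeq2 1.38.3 are named in the submitters' processing notes. For the aligner's settings, the build and the annotation nothing is given in the sources used here. The deposited table is named for FPKM, but its values are CPM made by the authors, since each value is a whole number of 1 step per library, the same for every gene (100% of values, tolerance 0.01 reads).

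Gene symbols were matched to 92.0% of Ensembl identifiers. Libraries were grouped by their titles and genotype labels. Genes with at least 1 CPM in 2 libraries were fitted with limma 3.58.1 (trend and robust options, pseudocount 1, R 4.3.3), with Benjamini-Hochberg adjustment over all 13253 genes. Alternatives were edgeR 4.0.16 and DESeq2 1.42.0 on the recovered reads, other scalings, filters and pseudocounts, a replicate block and omission of libraries. Members and gene lists were chosen with earlier results of these data known. Named were Fgf13, the 10 genes per direction with the smallest p where fewer than 5 passed (groups not overlapping, mean of at least 1 CPM in the higher group, no bare model name), from each of 44 lists the members past the threshold or the 2 with the smallest p, and a fixed panel. Further list members are given to show the range. A list with no tested gene (mesothelial and epithelial) was not used. A few items are not reported here. Scripts were tested on simulated counts in which 100 genes changed 2-fold and 100 changed 4-fold. Of the unchanged genes DESeq2 called 49, limma 13 and edgeR 14. Of the 2-fold changes they called 66, 46 and 42, and of the 4-fold changes 99, 97 and 96. The DESeq2 counts given here are thus the least strict of the 3. Counts of groups that do not overlap have no test, and with 2 and 3 libraries the number of libraries limits precision.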

Additional observations from a re-analysis of the deposited data

Results flagged for a closer look

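For Pnpla2 and Smpd3 the brown and subcutaneous fat of the constitutive knockout went opposite ways with no overlap of groups in either depot, and the difference between depots was not tested. Pnpla2, adipose triglyceride lipase, was at 2039, 1768 and 1822 against 2267 and 2122 CPM in brown fat, a change of 0.23 (SE 0.12, limma adjusted p = 0.328), and at 1559, 1540.2 and 1488 against 1368, 1398 and 1434 CPM in subcutaneous fat, a change of -0.13 (SE 0.08). Smpd3, neutral sphingomyelinase 2, was at 3.91, 2.95 and 4.93 against 0.738 and 1.67 CPM in brown fat, a change of -1.17 (SE 0.28, limma adjusted p = 0.237), and at 11.5, 11.3 and 10.8 against 18.5, 21.3 and 23.3 CPM in subcutaneous fat, a change of 0.85 (SE 0.11) (limma adjusted p = 0.173).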

How the results depend on the processing

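The number of genes past the limma threshold was 1 and became 0 with a pseudocount of 0.1, with a filter of at least 1 CPM in all libraries, without the trend and robust options, with the replicate block and with edgeR, 7 without a filter, 2880 with array weights (317 higher, 2563 lower) and 791 with DESeq2, and it ranged from 0 to 2079 when 1 library was left out, the highest without control 2. Of the settings chosen after the data were seen, it was 3 without controls 1 and 3 and 1469 without control 2 and knockout 2 (the libraries of each group with the most muscle RNA). Whether the replicate numbers pair the libraries could not be decided. The correlation of deviations was -0.16 for number 1 and 0.39 for number 2. With only 2 knockout libraries their deviations mirror each other, so the crossed pairs hold the same values with the opposite sign. Genes above all controls numbered 844, and 1407 without a filter, 2440 with TMM, 2389 with DESeq2 size factors, 2591 without controls 1 and 3, 2043 without control 2 and knockout 2, and 1099 to 2018 without 1 library. Genes below all controls numbered 5056, and 2507 with TMM, 2546 with DESeq2 size factors and 9054 without control 2 and knockout 2. Of 44 lists, 20 had library means that did not overlap (16 lower, 4 higher), and 22 to 35 without 1 library, 32 without controls 1 and 3 and 41 without control 2 and knockout 2. Groups of fewer libraries are apart more often whatever the data. The higher counts of genes and lists after libraries were left out can therefore not be credited to those libraries. The change of Fgf13 was -2.13 and -2.85 with DESeq2, where it passed. The cause of these differences was not tested. Changes near 0 turned sign. Pparg was at 0.13 with TMM, DESeq2 size factors, edgeR and DESeq2, at 0.016 without knockout 2 (the highest without 1 library) and at 0.0096 without control 2 and knockout 2. Ucp1 was at 0.16 with TMM, 0.15 with DESeq2 size factors, 0.13 with edgeR and DESeq2, and -0.26 to 0.15 without 1 library. Acta1 was at 2.57 with edgeR, 2.56 with DESeq2, and at -5.43 to 4.79 without 1 library. Fhl1 was at -0.035 with array weights. Without 1 library Fhl1 was at -0.37 to 0.73, Myl1 at -0.44 to 2.48 and Tnnt1 at -1.37 to 4.46, and without control 2 and knockout 2 they were at -0.40, -0.082 and -0.84. Without controls 1 and 3, Cidea was at -0.033, Ppargc1a at -0.16 and mt-Atp8 at -0.034, and Ppargc1a was at -0.0032 to 0.23 without 1 library. Over 115 named genes, 1843 of the recomputed values kept direction and side of the threshold, 291 passed newly, 9 no longer passed and 28 turned sign.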
